A study of Mus musculus with 29 samples.

Results

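The regions described here are the binding sites of the transcription factor PU.1 and the stretches of chromatin that carry the histone mark H3K27ac in microglia of adult wild-type (WT) mice. They were taken from the authors' peak lists of 2 PU.1 libraries and 2 H3K27ac libraries, which are 4 of the 25 libraries of the series with such lists. Peaks of the 2 libraries of a target were merged where they shared at least 1 bp, and a merged region with a peak in both libraries was kept as a consensus region. This gave 5359 PU.1 regions and 36697 H3K27ac regions, 42056 in all, and the question was how far the ones lie on the others. The merged regions of either library numbered 18132 for PU.1 and 102229 for H3K27ac, so that 29.6% and 35.9% of them were found in both libraries.

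The series mapped the transcription factors IRF8 and PU.1 and the marks H3K4me1 and H3K27ac in microglia by CUT&RUN. In this assay micrococcal nuclease joined to protein A is led by an antibody to its target in immobilised cells or nuclei, and the DNA that it frees is sequenced. All 4 libraries came from microglia of WT female mice of 3 months (the age also of the other adult mice below, all female), isolated from the brain without enzymes and sorted. Brain cells used for transcription factors, PU.1 included, were fixed with paraformaldehyde before sorting, and the labels state no fixation for the histone marks. Where other readouts are set beside these regions, they come from adult IRF8 libraries (an antibody against GFP in mice with an IRF8-EGFP fusion, 3 libraries), WT H3K4me1 (2 libraries), and PU.1 and H3K27ac in microglia of IRF8KO mice, which lack IRF8 (2 libraries each). The labels do not say whether replicate libraries came from separate animals, so the spread between them may be technical. In a sorted bulk population, a site bound in some cells and a site bound weakly in all cannot be told apart.

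PU.1, encoded by Spi1, is an ETS family factor that binds DNA around a GGAA core and is needed for the development of macrophages and microglia. It often binds together with IRF8, a partner that reads part of a composite site, and it marks the enhancers that make a cell myeloid. H3K27ac is laid down by acetyltransferases at active promoters and enhancers, on the nucleosomes next to the bound factors, while H3K4me1 marks enhancers whether active or not.

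The libraries held 8.9 and 17.3 M fragments (M, mega) for PU.1 replicates 1 and 2, and 20.2 and 15.4 M for H3K27ac. The lists held 14057 and 9490 PU.1 regions and 72354 and 72875 H3K27ac regions. PU.1 replicate 2 was called at a q-value of 0.05 and against another IgG control than the other 3 libraries, which were called at 0.01. No test was made. Classes of regions were compared within each library, and the 2 libraries of a target are too few to test such pairs. An exact test of 2 libraries against 2, which was not the comparison here, cannot go below p = 0.333. The main values over consensus regions are set beside the same value in each library's own list, as mean ± SD (n = 2).

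Sequences of 6 chosen sites are given as examples, with 300 bases around the strongest PU.1 summit of replicate 1 on the plus strand of GRCm38 (mm10). Capitals mark the ETS hexamer GGAAGT or its reverse complement ACTTCC. Mbnl1 and Actb name the genes nearest to the strongest distal PU.1 regions with H3K27ac, Prelid1 and Rnase2a those of strong distal PU.1 regions without it. Cx3cr1 and P2ry12 are microglial receptor genes, and their strongest distal PU.1 regions are shown because one lacks H3K27ac and the other lies inside a wide block of it.
Mbnl1 (chr3:60468931-60469230): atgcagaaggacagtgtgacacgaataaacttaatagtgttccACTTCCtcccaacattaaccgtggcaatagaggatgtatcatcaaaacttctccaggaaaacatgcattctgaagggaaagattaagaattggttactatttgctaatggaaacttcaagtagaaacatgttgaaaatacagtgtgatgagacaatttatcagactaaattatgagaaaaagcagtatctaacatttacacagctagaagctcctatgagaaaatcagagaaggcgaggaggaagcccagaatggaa
Actb (chr5:142909292-142909591): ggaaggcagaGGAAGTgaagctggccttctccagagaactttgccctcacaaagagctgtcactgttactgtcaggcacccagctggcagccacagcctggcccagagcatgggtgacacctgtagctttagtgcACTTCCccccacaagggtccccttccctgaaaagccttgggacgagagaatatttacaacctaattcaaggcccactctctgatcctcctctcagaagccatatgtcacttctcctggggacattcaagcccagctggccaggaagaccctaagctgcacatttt
Prelid1 (chr13:55318552-55318851): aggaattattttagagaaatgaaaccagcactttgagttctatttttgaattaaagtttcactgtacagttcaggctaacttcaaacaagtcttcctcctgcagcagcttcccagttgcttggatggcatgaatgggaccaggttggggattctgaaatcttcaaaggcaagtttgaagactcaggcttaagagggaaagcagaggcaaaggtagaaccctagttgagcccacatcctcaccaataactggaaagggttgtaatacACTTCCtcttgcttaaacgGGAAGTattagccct
Rnase2a (chr14:51288320-51288619): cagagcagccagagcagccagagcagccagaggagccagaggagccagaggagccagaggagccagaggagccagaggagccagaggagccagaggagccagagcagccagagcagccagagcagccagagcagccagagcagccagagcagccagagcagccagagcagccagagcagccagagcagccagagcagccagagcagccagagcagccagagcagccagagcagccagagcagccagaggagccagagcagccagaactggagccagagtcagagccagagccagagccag
Cx3cr1 (chr9:120058786-120059085): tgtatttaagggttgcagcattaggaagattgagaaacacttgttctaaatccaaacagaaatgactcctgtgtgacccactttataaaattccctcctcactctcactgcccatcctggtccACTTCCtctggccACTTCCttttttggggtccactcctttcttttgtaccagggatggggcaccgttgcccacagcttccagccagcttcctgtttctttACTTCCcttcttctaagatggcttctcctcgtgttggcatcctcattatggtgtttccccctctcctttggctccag
P2ry12 (chr3:59228971-59229270): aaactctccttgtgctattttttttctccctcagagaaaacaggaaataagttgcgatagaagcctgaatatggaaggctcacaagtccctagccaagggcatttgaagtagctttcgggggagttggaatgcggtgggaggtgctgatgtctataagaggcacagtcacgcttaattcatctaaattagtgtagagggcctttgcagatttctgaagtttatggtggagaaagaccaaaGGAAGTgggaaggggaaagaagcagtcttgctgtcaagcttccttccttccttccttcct
The windows of Mbnl1, Actb, Prelid1 and Cx3cr1 also hold the longer PU.1-type octamer GAGGAAGT. Counted along the plus strand from the summit, the hexamer starts at 90 at P2ry12, at -107 at Mbnl1, at 116 and 135 at Prelid1 and at -140 and -15 at Actb. The Cx3cr1 window holds 3 copies, at -27, -14 and 73, so that the windows of Actb and Cx3cr1 hold copies close to the summit as well as farther ones. The Rnase2a window holds none and is a tandem repeat. The windows at Cr2 and Spi1, which the naming rule also gave, hold no GGAAGT and are not shown. Prelid1 was added after its values were seen, so the examples do not show how common the hexamer is.

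Most PU.1 regions lay on H3K27ac and few H3K27ac regions held PU.1. Of the 5359 PU.1 regions, 4883 (91.1%) overlapped an H3K27ac consensus region, and 476 did not. Of the 36697 H3K27ac regions, 4634 (12.6%) held a PU.1 region. H3K27ac regions covered 81.8 Mb, or 3.00% of the genome, and those with PU.1 made up 18 Mb of this (22.0%). The share was lower in the libraries' own lists, which hold many weaker regions: 66.7% of the PU.1 regions of replicate 1 and 72.9% of those of replicate 2 overlapped the H3K27ac consensus, 69.8 ± 4.36% (SD, n = 2). Regions found in replicate 1 only overlapped it in 51.7% and those found in replicate 2 only in 49.2%, so that PU.1 regions found in both libraries stood above those of a single library.

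These shares move with list length. When the 4 lists were all reduced to their 9490 regions of highest pileup (the authors' scaled fragment coverage), 44.6% of PU.1 regions overlapped H3K27ac and 36.4% of H3K27ac regions held PU.1. With a peak of the other target in either of its libraries, the shares were 96.8% and 27.6%. The share of H3K27ac regions with PU.1 was 23.3% without PU.1 replicate 2, 6.57% without H3K27ac replicate 1 and 6.77% without H3K27ac replicate 2.

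A PU.1 region without an H3K27ac consensus region was not always free of the mark. Of the 476, 188 (39.5%) overlapped a peak of H3K27ac replicate 1 only, 106 (22.3%) one of replicate 2 only, 13 peaks of both libraries that did not touch each other, and 169 (35.5%) no H3K27ac peak at all. For the 462 that were not on chromosome Y or the mitochondrial genome, the nearest H3K27ac consensus region was at a median of 16369 bp; 6.51% had one within 1 kb and 26.3% had none within 50 kb.

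H3K27ac regions with PU.1 were stronger and wider than those without, though most of the strongest and widest regions held no PU.1 consensus region. Pileup was ranked within each list as a percentile, and the rank of a consensus region is the mean over both libraries. The median rank was 89.5 for H3K27ac regions with PU.1 and 63.5 for those without. In the libraries' own lists the medians were 88.1 and 91.0 with PU.1 (89.6 ± 2.07, SD, n = 2) and 50 and 48.1 without (49.0 ± 1.31), so that the medians of the 2 classes lay far apart in each library. The regions themselves overlapped in rank: the lower quartile with PU.1 was 78.7 and the upper quartile without was 80.6, and 10.7% of the regions without PU.1 had a rank of at least 90. The median width was 3026 bp with PU.1 and 1557 bp without, and in the libraries' own lists 2212 ± 27.2 and 680 ± 65.1 bp. Both differences were smaller with lists of equal length: that of rank was 11.2 percentile points in place of 26.1, and the log2 ratio of widths 0.47 in place of 0.96. Distal regions, those whose centre is over 1 kb from the start of a protein-coding gene, differed more in width (3298 against 1546 bp) than promoter regions (2325 against 1594 bp).

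The share of H3K27ac regions with PU.1 rose along both measures. Ranked by pileup and split into 10 classes of equal size, it went from 1.23% in the lowest class to 43.4% (1594 of 3670 regions) in the highest. PU.1 replicate 1 alone gave 3.76% and 62.5% in these classes and replicate 2 alone 2.23% and 53.3%. Split by width, the share went from 2.48% in the narrowest class, of median 591 bp, to 40.0% in the widest, of median 5760 bp. A wide region can meet a PU.1 region more easily, so rank was also compared at like width. Within the 10 width classes the median rank of regions with PU.1 was higher in every class, by 20.9 percentile points in the narrowest and by 5.29 in the widest. In the highest rank class 47.0% of distal regions and 28.9% of promoter regions held PU.1. The order was the opposite in the lower classes, with 1.12% and 2.40% in the lowest, and over all ranks the shares were alike (12.6% and 12.8%).

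**Figure D1:**
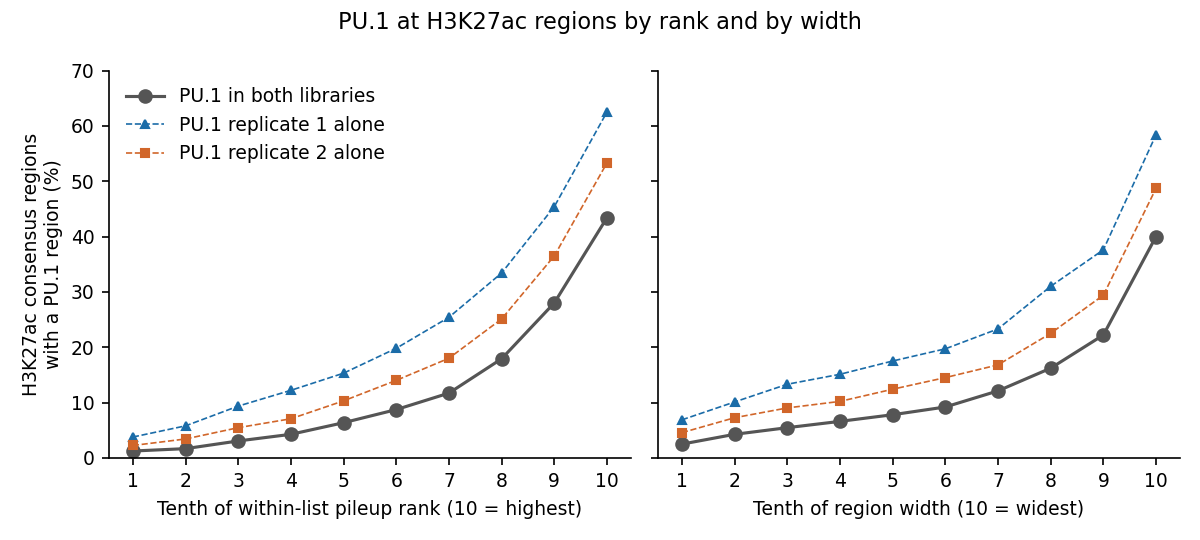
Share of the 36697 H3K27ac consensus regions with a PU.1 region (y axis, percent) in 10 classes of within-list pileup rank (left) and of width (right); grey circles use PU.1 regions found in both libraries, triangles and squares the list of PU.1 replicate 1 or 2 alone. All 3 curves rise along both axes, the grey one from 1.23% to 43.4% by rank and from 2.48% to 40.0% by width.

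Most H3K27ac regions with PU.1 held a single PU.1 region: 4402 held 1, 213 held 2 and 19 held 3 or more, the most being 4.

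PU.1 regions with H3K27ac ranked above those without. The median rank of PU.1 pileup was 70.1 with H3K27ac and 60.1 without, and the median width 697 and 570 bp (451 ± 21.6 and 292 ± 15.2 bp in the libraries' own lists). In the libraries' own lists, the median percentile was 65.2 and 61.2 with H3K27ac and 20.8 and 28.8 without (63.2 ± 2.80 against 24.8 ± 5.68, SD, n = 2). The difference of 9.93 percentile points over consensus regions thus became 32.4 without PU.1 replicate 1 and 44.4 without replicate 2, since the list then also holds the single-library regions. The difference was smaller than that of H3K27ac regions (26.1) over consensus regions, but in the libraries' own lists the differences were 38.4 ± 8.48 for PU.1 and 40.5 ± 3.38 for H3K27ac. At like width, as the mean over 10 width classes, the PU.1 difference was 5.74, and it was negative in 2 of the 10 (-1.42 and -4.46). Strong PU.1 regions did occur outside H3K27ac consensus regions: 13.4% of the 476 regions had a rank of at least 90, against 16.3% with H3K27ac. Only 169 of the 476 met no H3K27ac peak in either library, and their median rank was 60.7. The 476 also hold 25 distal and 6 promoter regions with a control level over 10 times their list's median or on chromosome Y. The share with H3K27ac was lowest, at 86.6%, in the lowest of 10 rank classes and highest, at 94.8%, in the ninth, and it was 90.5% in the highest. Across the 4883 PU.1 regions with H3K27ac, the ranks of the 2 targets were weakly related (Pearson r = 0.181, Spearman rho = 0.214, across regions, which share libraries and are not independent). The median rank of the H3K27ac region under a PU.1 region went from 86.5 in the lowest of 5 classes of PU.1 rank to 93.3 in the highest.

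**Figure D2:**
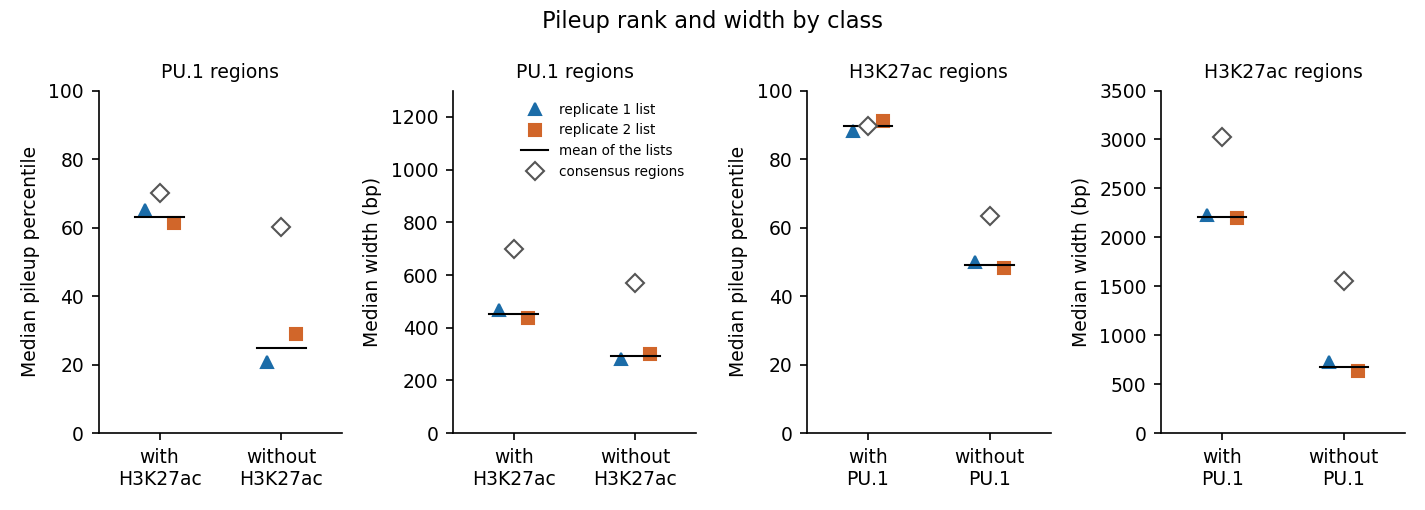
Median within-list pileup percentile and median width (bp) of PU.1 regions with and without H3K27ac (2 panels on the left) and of H3K27ac regions with and without PU.1 (2 panels on the right). Triangles and squares are the lists of replicates 1 and 2, black lines their mean, and open diamonds the consensus regions; in every panel both replicates lie higher with the other target than without it.

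Promoters did not separate the classes of PU.1 regions in one direction. Of the PU.1 consensus regions, 19.2% of those with H3K27ac (939 of 4883) and 22.9% of those without (109 of 476) were at promoters. In the libraries' own lists the order was the reverse, 20.7 ± 0.376% with H3K27ac and 9.73 ± 0.309% without (SD, n = 2), and it was also the reverse when H3K27ac replicate 2 was left out (a difference of 5.88 percentage points, with minus without). Among the 188 regions with a peak of H3K27ac replicate 1 only, 34.6% were promoters, against 13.6% of the 169 with no H3K27ac peak. Outside promoters, 51.0% of PU.1 regions with H3K27ac were centred in introns and 44.6% between genes, against 38.7% and 52.0% of those without. Of H3K27ac regions, 19.1% with PU.1 and 18.8% without were promoters, a difference of 0.363 percentage points. In the libraries' own lists the shares were 19.5 ± 0.562% and 12.1 ± 1.49%, a difference of 7.41 ± 0.929 points, while the difference was -5.09 at a −log10 q of at least 5 and -10.1 with lists of equal length. This comparison too had no fixed direction.

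The strongest promoter PU.1 regions with H3K27ac included those of Fam49b, Rnf5 and Pold4, with ranks from 99.7 to 99.8. At Pold4, which encodes a DNA polymerase delta subunit, the region chr19:4230699-4232452, centred 324 bp from the start, had a fold enrichment over the control of 36.8 and 24.1 in replicates 1 and 2. It lay in an H3K27ac region of 3330 bp with a rank of 95.8. These 3 regions overlapped IRF8, H3K4me1, PU.1 in IRF8KO microglia and H3K27ac in IRF8KO microglia. Over all promoter PU.1 regions with H3K27ac these shares were 93.3%, 93.9%, 86.3% and 81.6%.

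The strongest promoter PU.1 regions without H3K27ac lay at Mylpf, Nubp2, Cryzl1 and Pik3cd. The Mylpf region, chr7:127208764-127209593, lay in an intron of this muscle myosin light chain gene and had a fold enrichment of 16.0 and 21.4. The Pik3cd region, chr4:149701668-149702990, lay in an intron of the gene of a leukocyte PI3-kinase subunit and had a fold enrichment of 22.8 and 14.8. Of the 4 regions, 3, those of Mylpf, Nubp2 and Cryzl1, overlapped an H3K27ac peak of replicate 1, and that of Pik3cd overlapped a peak in each replicate, which did not merge. All 4 overlapped IRF8, and Mylpf, Cryzl1 and Pik3cd also H3K4me1. Over all 109 promoter PU.1 regions without H3K27ac these shares were 79.8% and 68.8%. Each of these promoter regions thus met an H3K27ac peak in at least 1 library, as did all but 23 of the 109.

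The strongest distal PU.1 regions with H3K27ac lay nearest to Mbnl1, Actb, Jarid2 and Vps35l. The region before Mbnl1, a splicing regulator gene, was the highest of the named PU.1 regions: chr3:60468341-60469445 had pileups of 207 and 179 and a fold enrichment of 105 and 62.1, and lay 3937 bp from the gene's start in an H3K27ac region of 10962 bp. The region 2871 bp before Actb, the gene of beta-actin, chr5:142909224-142910027, had a fold enrichment of 40.5 and 31.3. The region nearest to Jarid2, a Polycomb cofactor gene, was 224890 bp from its start. All 4 overlapped IRF8 and PU.1 of IRF8KO microglia, as did 88.6% and 73.2% of all distal PU.1 regions with H3K27ac.

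The strongest distal PU.1 regions without H3K27ac were of another kind in part. The region nearest to Rnase2a, chr14:51288266-51288560, had pileups of 146 and 70 but a fold enrichment of only 17.3 and 4.10, and it overlapped neither IRF8 nor H3K4me1 nor H3K27ac in either library. Its sequence is the tandem repeat shown above. The region nearest to Cr2, chr1:195241589-195241852, was 65004 bp from the gene's start and had pileups of 57 and 78 with a fold enrichment of 3.98 and 4.67. It overlapped IRF8 and an H3K27ac peak of WT replicate 1 only, but not H3K4me1 or H3K27ac in IRF8KO microglia. Fold enrichment was higher at the other two: the region in an exon of Rab14, a gene of a vesicle-transport GTPase (chr2:35196044-35196464), and the region 1824 bp before Prelid1 (chr13:55318290-55319063), a gene of mitochondrial lipid transfer, reached a fold enrichment of 40.7 and 21.7, and 32.8 and 14.5. Both overlapped IRF8 and H3K4me1 as well as H3K27ac in IRF8KO microglia. Over all distal PU.1 regions without H3K27ac these shares were 61.6%, 76.8% and 39.5%. The Rab14 region overlapped H3K27ac of WT replicate 2 only and the Prelid1 region that of WT replicate 1 only. Regions with a control level over 10 times their list's median, or on chromosome Y, had been left out before naming: 25 of 367 distal and 6 of 109 promoter PU.1 regions without H3K27ac, against 2 of 3944 and 0 of 939 with it. Without them the share of PU.1 regions with H3K27ac was 91.6%.

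Strong distal H3K27ac regions occurred with and without PU.1. Those with PU.1 and the highest ranks included those of Gpa33, Slain1 and Fam181b, and those without lay at 1110059E24Rik, Efna5, 2010111I01Rik and Slc4a7. The Gpa33 region, chr1:166135896-166141830, in an intron, had a fold enrichment of 21.3 and 28.8 and held a PU.1 region of 640 bp with a fold enrichment of 15.1 and 5.48. The region in 1110059E24Rik, chr19:21602239-21606127, had a fold enrichment of 18.2 and 17.3. All 4 regions of the second group, though without a PU.1 consensus region, overlapped a PU.1 peak of at least 1 IRF8KO library, and 3 of the 4 overlapped IRF8. Over all distal H3K27ac regions without PU.1 these shares were 13.1% and 22.9%, but the median rank of those regions was 60.8 and their median width 1546 bp. In the highest of 10 rank classes, 65.0% of 2076 H3K27ac regions without PU.1, promoters included, overlapped IRF8. The share with PU.1 in IRF8KO microglia was not taken at like rank.

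At genes central to microglia, PU.1 lay inside H3K27ac about as often as over all PU.1 regions. Of the genes set out for this, Spi1 had 2 PU.1 regions, Csf1r 3, Cx3cr1 2, P2ry12 5, Runx1 5, Sall1 5, Ctss 3 and Tyrobp 2 (regions given to the protein-coding gene of the nearest start), and Irf8 and Tmem119 had none in the consensus although they had 6 and 2 H3K27ac regions. Of the 27 PU.1 regions of these 10 genes, 26 overlapped H3K27ac, near the 91.1% of all PU.1 regions.

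The gene of PU.1 itself, Spi1, carried its PU.1 regions inside 1 H3K27ac region of 12062 bp, chr2:91078870-91090931, with a rank of 95.3. One was centred in an exon 39 bp from a start (chr2:91082020-91082838, rank 45.0) and the other lay in an intron 2228 bp downstream (chr2:91084378-91084858, rank 60.2). Both overlapped IRF8 and were found in IRF8KO microglia. Their fold enrichments, 5.55 and 4.83 for the first and 6.56 and 5.52 for the second, were below the median of all PU.1 regions in replicate 1 (7.57) and at or below it in replicate 2 (5.52).

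P2ry12, the purinergic receptor gene that marks homeostatic microglia, had 5 PU.1 regions in 3 H3K27ac regions. The strongest, chr3:59228592-59229494, lay in an intron 1462 bp before a start, had a rank of 92.6 and sat in an H3K27ac region of 15663 bp. Runx1, a haematopoietic transcription factor gene, had 5 PU.1 regions and 31 H3K27ac regions.

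Sall1, a zinc-finger factor gene specific to microglia among macrophages, had 5 PU.1 regions spread from 66886 to 360393 bp before its start, all inside H3K27ac. Their ranks were low to middling, from 24.8 to 65.9, and 4 of 5 overlapped IRF8, beside 87.4% of all PU.1 regions. None of the 5 had a PU.1 peak in either IRF8KO library, whereas 19 of the 22 PU.1 regions of the other genes above and 74.9% of all PU.1 regions had one. Of P2ry12 and Runx1, 4 of 5 regions had one each, and of Cx3cr1 1 of 2. Absence from a list does not measure a level.

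Cx3cr1, the fractalkine receptor gene, was the exception among these genes. Its strongest PU.1 region, chr9:120058642-120059647, lay in an intron 9139 bp downstream of the start, with pileups of 51 and 32, a fold enrichment of 11.2 and 5.76 and a rank of 97.1. It overlapped IRF8 and H3K4me1 but no H3K27ac peak of either WT library or of either IRF8KO library, and the nearest H3K27ac consensus region was 7603 bp away. The gene's other PU.1 region, chr9:120068002-120070056 at the promoter, had a rank of 29.1 and lay on an H3K27ac region of rank 82.1. The stronger PU.1 region of this gene was thus the one without H3K27ac.

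Across the genome, 3199 of 21829 protein-coding genes (14.7%) were nearest to at least 1 PU.1 region with H3K27ac, 404 (1.85%) to one without, and 289 (1.32%) to ones without only. Any PU.1 region was given to 3488 genes (16%), a promoter PU.1 region to 1027 (4.7%), and an H3K27ac region with PU.1 to 3187 (14.6%). H3K27ac regions of any kind were given to 10407 genes (47.7%), and 7098 genes (32.5%) had one but no PU.1 region. Of the genes with PU.1 and H3K27ac, 2213 had 1 such region, 589 had 2, 242 had 3, 78 had 4 and 77 had 5 or more. Marcks, a gene of a membrane-bound actin regulator, had the most PU.1 regions, 11 beside 110 H3K27ac regions, followed by Cited2, Dusp6 and Zeb2 with 9 each (named after the counts were seen).

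Lists of genes with known roles differed in how often they had PU.1 with H3K27ac. Of 18 homeostatic microglial genes, 16 (88.9%) had such a region, most often P2ry12 and Sall1 with 5 and Gpr34 with 4, and Tmem119 and C1qa had no PU.1 region. Of 20 myeloid transcription factor genes, 18 (90%) did, but 11 (55%) when regions were given to gene bodies and the 10 kb before them. The list was led by Etv6 with 8 regions, followed by Fli1, Maf, Mef2a and Runx1 with 5 each. Irf8 and Klf2 had none. Of 22 genes of innate receptors and their signalling, 16 (72.7%) did, led by Inpp5d, an inositol phosphatase gene, with 6, and by Syk and Tlr2 with 3 each. Of 16 lysosomal and phagocytic genes, 11 (68.8%) did, led by Ctsd, Ctss and Lgmn, protease genes with 3 each. These shares stand beside 14.7% of all protein-coding genes. H3K27ac regions of any kind were given to 93.8% to 100% of the genes of these lists, against 47.7% of all genes. By region the lists stood closer to the background. Of their H3K27ac regions, 29 of 139 (homeostatic), 52 of 343 (myeloid factors), 30 of 110 (innate receptors) and 16 of 60 (lysosomal) held PU.1. Over all H3K27ac regions this share was 12.6%.

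Genes of interferon response and antigen presentation had PU.1 with H3K27ac about as often as all genes. Of 19 genes, 3 (15.8%), namely B2m, Cd74 and H2-D1, had such a region, against 14.7% of all genes, and H2-K1 had a PU.1 region without H3K27ac. An H3K27ac region was given to 15 of the 19 (78.9%, against 47.7% of all genes) and one at the promoter to 12 (63.2%, against 29.7%). Irf7, Isg15 and Ifit3 had H3K27ac promoters without a PU.1 consensus region (named after the values were seen). Of 15 housekeeping genes, 11 (73.3%) had H3K27ac and 4 (26.7%) PU.1 with H3K27ac, beside 47.7% and 14.7% of all genes, among them Ywhaz with 2 regions and Actb with the strong one described above.

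Genes that mark other cell types were set beside these lists. None of 12 neuronal genes and none of 12 lymphocyte and neutrophil genes had a PU.1 region, 1 of 9 astrocyte genes did (Slc1a3, with 3), 1 of 10 oligodendrocyte genes (Cnp, with 1), and 3 of 8 endothelial genes (Cdh5 with 2, Kdr and Pecam1 with 1 each), against 16% of all genes. H3K27ac regions were given to 3 of 12 neuronal, 6 of 9 astrocyte, 4 of 10 oligodendrocyte, 5 of 8 endothelial and 2 of 12 lymphocyte and neutrophil genes, against 47.7% of all genes. Rbfox3, Gfap, Olig2, Cd3e and S100a8 had no region of either kind. Other markers did have H3K27ac without PU.1: 17 regions of the neuronal gene Syt1 with a rank of up to 98.9, 11 of the astrocyte gene Slc1a2 and 4 each of Aqp4 and Gja1, and regions of the myelin genes Mbp and Mog with ranks up to 98.8 and 95.9 (all these genes were named after the values were seen). The part of other cells in the H3K27ac regions without PU.1 was not tested. When a region was instead given to each gene whose body, or the 10 kb before it, it touched, 2924 genes (13.4%) had PU.1 with H3K27ac, 401 (1.84%) PU.1 without it, 3243 (14.9%) any PU.1 and 10897 (49.9%) any H3K27ac. The list counts for PU.1 with H3K27ac then became 15 of 18 for homeostatic genes, 11 of 20 for myeloid transcription factors, 15 of 22 for innate receptors and 9 of 16 for lysosomal genes. They were 3 of 19 for interferon genes, 3 of 15 for housekeeping genes, 1 of 12 for neuronal, 1 of 9 for astrocyte, 1 of 10 for oligodendrocyte and 3 of 8 for endothelial genes, and 0 of 12 for lymphocyte and neutrophil genes.

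**Figure D3:**
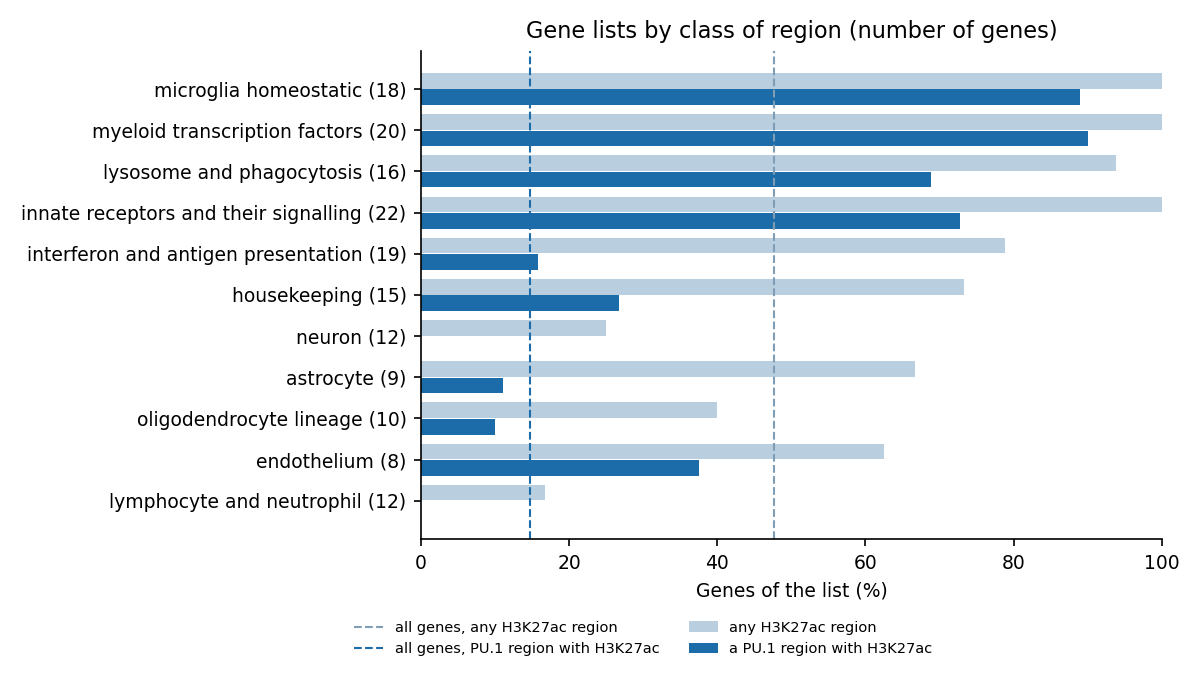
Share of genes (x axis, percent) of each list with any H3K27ac region (pale bars) and with a PU.1 region on H3K27ac (dark bars); dashed lines give the same shares over all 21829 protein-coding genes, 47.7% and 14.7%. The dark bars of the microglial, myeloid factor, innate receptor and lysosomal lists reach 68.8% to 90% (the myeloid factor bar, 90% here, is 55% when regions are given to gene bodies and the 10 kb before them), that of the interferon list 15.8%, and those of the neuronal and lymphocyte lists are 0.

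Other readouts, which the classes did not use, differed between PU.1 regions with and without H3K27ac. IRF8, in at least 2 of 3 adult libraries, overlapped 89.5% of PU.1 regions with H3K27ac and 65.8% of those without. In the libraries' own lists the shares were 76.1 and 81.6% with H3K27ac (78.9 ± 3.86%, SD, n = 2) and 14.7 and 20.1% without (17.4 ± 3.78%). H3K4me1, in both libraries, overlapped 97.9% and 75% of consensus regions (96.7 ± 0.313% and 33.4 ± 2.31% in the own lists). A PU.1 peak in either of the 2 IRF8KO libraries overlapped 75.7% and 66.4% (60.2 ± 5.91% and 16 ± 5.54%), and peaks in both libraries 52.7% and 44.5%. An H3K27ac peak in either IRF8KO library overlapped 80.7% and 39.7% (74 ± 1.45% and 13.6 ± 1.13%), and peaks in both 44.1% and 6.3%. Below, overlap with a target in IRF8KO microglia means a peak in either library, as it did for the single regions above. Of the 169 PU.1 regions with no H3K27ac peak in either WT library, 50.3% overlapped IRF8, 61.5% H3K4me1 and 61.5% PU.1 of IRF8KO microglia. PU.1 regions with and without H3K27ac also differed in median rank (70.1 and 60.1) and width (697 and 570 bp). The part of rank and width in these shares was not tested.

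H3K27ac regions with PU.1 were mostly IRF8 regions as well. IRF8 overlapped 90.1% of them and 27.3% of those without PU.1, and in the libraries' own lists 89.4 ± 0.0892% and 15 ± 0.901% (SD, n = 2). H3K4me1 overlapped 98.1% and 85.1% (97.6 ± 0.182% and 64.9 ± 5.39% in the own lists). H3K27ac of either IRF8KO library overlapped 86.3% and 63.0% (83.4 ± 0.272% and 40.1 ± 3.73%), and that of both libraries 47.7% and 17.8%. Strength moves with PU.1, so these shares were also taken at like rank. In the lowest of 10 rank classes 64.4% of 45 regions with PU.1 and 36.7% of 3625 without had an H3K27ac peak in IRF8KO microglia, and in the highest 95.6% of 1594 and 92.5% of 2076. IRF8 overlapped 68.9% and 6.10% in the lowest class and 95.0% and 65.0% in the highest, and the share was higher with PU.1 in each of the 10 classes for both readouts. In each rank class the regions with PU.1 were also wider (a median of 1078 against 928 bp in the lowest and 4913 against 3562 bp in the highest), and a wide region can meet another peak more easily. The part of width in these shares was not tested.

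**Figure D4:**
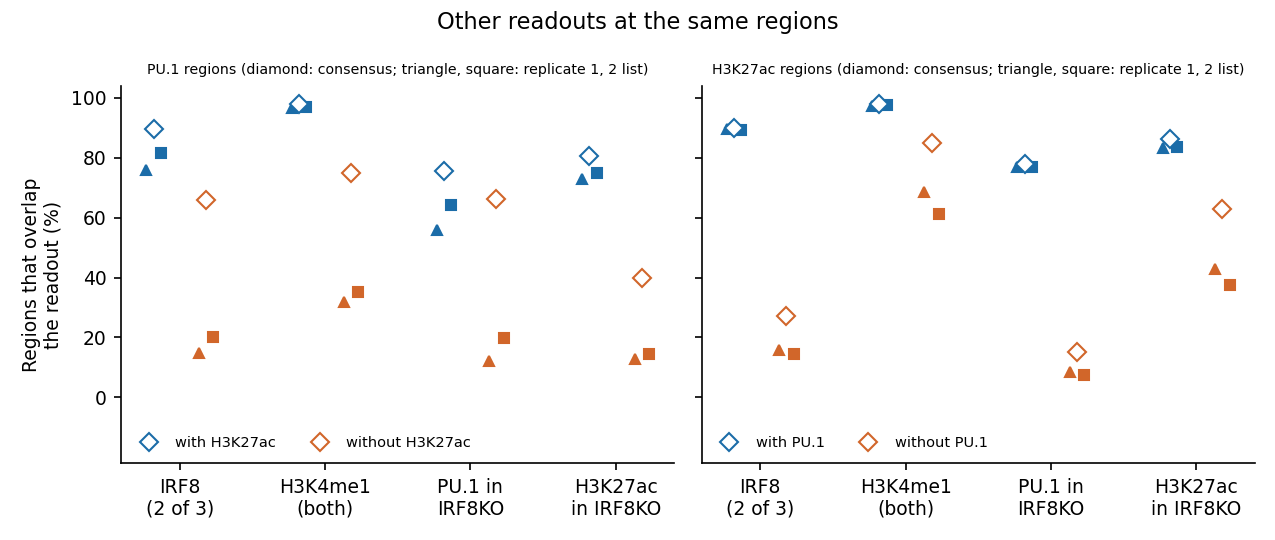
Share of PU.1 regions (left) and H3K27ac regions (right) that overlap IRF8, H3K4me1, and PU.1 or H3K27ac of either IRF8KO library (y axis, percent). Blue is with and orange without the other target, diamonds are consensus regions, and triangles and squares the lists of replicates 1 and 2; every blue point lies above the orange point of its kind.

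PU.1 lay towards the middle of H3K27ac regions, with one of their several summits nearby. The strongest PU.1 summit fell in the middle segment of the H3K27ac region, cut into 3 segments of equal length, in 51.1% of the 4831 cases, of 4883, whose summit lay inside it. From the PU.1 summit of replicate 1 at distal regions, the nearest H3K27ac summit was at a median of 58 bp in H3K27ac replicate 1 and 93 bp in replicate 2. H3K27ac regions with PU.1 had a mean of 5.76 and 4.68 summits in these libraries. The strongest H3K27ac summit of the region was at a median of 240 and 278 bp over all 4883 cases, and within 100 bp in 33% and 26.3%. Counted in bins of 100 bp either side of these distal PU.1 summits, H3K27ac summits of replicate 1 numbered 32.4 per 100 PU.1 regions at 0 to 100 bp, 15.5 at 100 to 200 bp and 22.1 at 200 to 300 bp. The same dip and second maximum were seen with H3K27ac replicate 2 (26.3, 14.5 and 19.2) and at promoters (32.4, 13.7 and 20 with replicate 1).

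PU.1-type letters were densest beside the PU.1 summits, though some lay on them. In PU.1 regions with H3K27ac, GGAAGT (either strand) occurred 12.6 times per 100 bp per 100 regions within 50 bp of the PU.1 summit, 34.7 times at 100 to 200 bp and 9.86 times at 300 to 400 bp. In regions without H3K27ac the values were 11.4, 29.7 and 6.95. The peak at 100 to 200 bp was thus seen in both classes, and it led to a second count that starts from the site.

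Around the octamer GAGGAAGT both targets showed a dip beside a nearby maximum. A single match lay in 1497 PU.1 regions, 1377 of them with H3K27ac. Around these 1377, PU.1 summits of replicate 1 numbered 3.96 per 100 matches at 0 to 50 bp, 23.7 at 100 to 150 bp and 4.43 at 200 to 250 bp, and those of replicate 2 numbered 4.28, 23.3 and 3.96. H3K27ac summits of replicate 1 numbered 7.01, 21.5 and 9.15 and those of replicate 2 numbered 5.74, 15.7 and 7.70. The bins of 100 to 150 bp were the highest of those given for both targets in all 4 libraries. At 450 to 500 bp, PU.1 summits numbered 1.42 and 0.908 in replicates 1 and 2, and H3K27ac summits 6.21 and 5.81. The match was thus low only beside the maximum: H3K27ac summits were about as frequent there as at 450 to 500 bp, and PU.1 summits more frequent. Around the 120 matches in regions without H3K27ac, PU.1 summits were placed alike (3.33 and 19.2 in replicate 1, 5 and 25.4 in replicate 2), while H3K27ac summits of single-library peaks were few (1.67 and 6.67, 0.417 and 2.08). PU.1 and H3K27ac summits thus shared positions on either side of the site. Both come from fragments freed by a nuclease, and the part of fragment length in these distances was not tested.

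**Figure D5:**
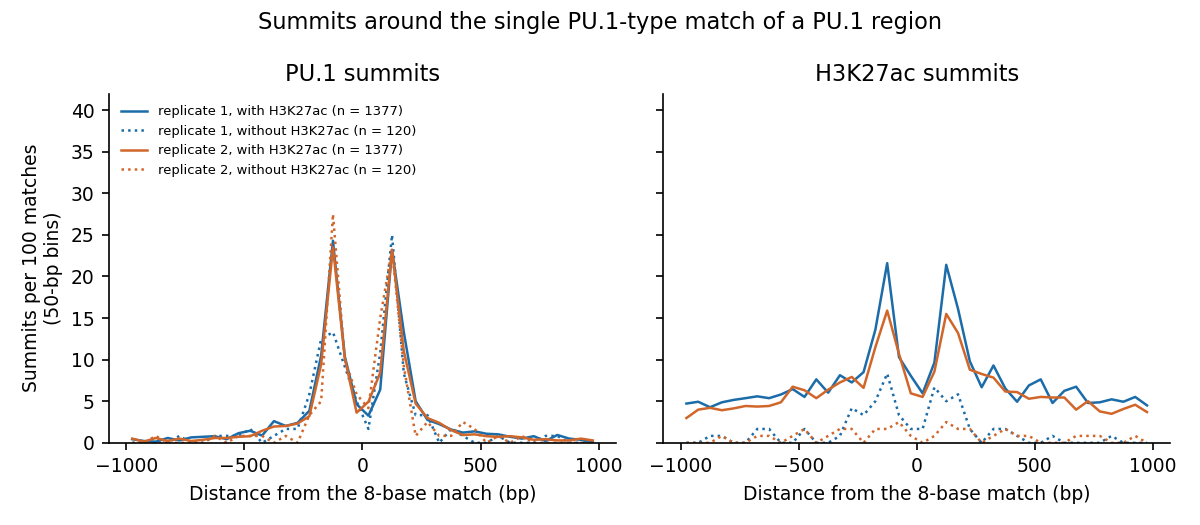
Summits of PU.1 (left) and H3K27ac (right) per 100 matches of the PU.1-type octamer (y axis, bins of 50 bp) against the distance from the match (x axis, bp), around single matches in PU.1 regions with H3K27ac (solid, 1377 matches) and without (dotted, 120 matches), in replicates 1 (blue) and 2 (orange). With H3K27ac, both targets are lower at the match than 100 to 150 bp from it, where they are highest, with 23.7 PU.1 and 21.5 H3K27ac summits per 100 matches in replicate 1.

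Since the matches were densest beside the summits, motif shares were compared in windows of 501 bp around the strongest PU.1 summit of replicate 1. GGAAGT was found in 73.0% of PU.1 regions with H3K27ac and 67.4% of those without, and GAGGAAGT, which contains it, in 28.4% and 27.8%. Without high-control regions and those on chromosome Y, these were 73% and 69.9% for GGAAGT, and 28.4% and 29.0% for GAGGAAGT, so that the order of the octamer was not fixed. The composite ETS-IRF pattern, GGAA and GAAA with 2 free bases between them, was found in 16.4% and 12.4%. In windows of this length at the starts of protein-coding genes these shares were 33.7%, 4.35% and 4.25%, and at distal H3K27ac regions without PU.1 43.6%, 9.16% and 8.10%. The shares of both classes lay above both backgrounds for all 3 patterns. The 168 regions with no H3K27ac peak in either library that could be read held GGAAGT in 58.9%, GAGGAAGT in 25.6% and the composite pattern in 9.52%, the last near the 8.10% of distal H3K27ac regions without PU.1. At promoters, windows of 501 bp held the composite pattern in 12% with H3K27ac and 13% without, and at distal regions in 17.4% and 12.3%. In windows of 201 bp none of the 3 patterns was more frequent with H3K27ac. There GAGGAAGT was found in 6.41% with H3K27ac and 7.79% without, GGAAGT in 25.6% and 26.7%, and the composite pattern in 4.14% and 4.21%. Median GC content in these shorter windows was 47.8% and 48.3%.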

How the data were processed

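Peaks were called by the authors for each library separately with MACS2 against an IgG control, with version 2.2.7.1 for PU.1 and 2.2.6 for H3K27ac per the file headers, joining stretches up to 640 bp apart. Reads were handled with bcl2fastq, Trim Galore, Bowtie2 and deepTools on mm10, per the submitters' processing notes. The deposited pileup is a scaled coverage signal, the deposited −log10 p and q values and fold enrichment (a ratio to the control) are the authors' own, and all were used only to rank or filter regions within a list.

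The members and gene lists were chosen with earlier results of these data known. A list repeats a region for each summit; each region was used once, with its summit of highest pileup. Overlap means at least 1 bp. IRF8 regions needed 2 of 3 libraries. A promoter region has its centre within 1 kb of 1 of 54368 starts of 21829 protein-coding genes of GENCODE vM21 on GRCm38. The control level is (pileup + 1)/fold. Named regions are the 4 of highest mean percentile in each class, the PU.1 regions of microglial genes, and up to 3 members of a list with the most PU.1 regions; regions on chromosome Y or unplaced sequence or with a control over 10 times the list's median were left out of the naming. Some regions and genes that the rule names are not reported here. In the sequence examples Rab14 (exonic), Cr2 and Spi1 are not shown, Csf1r is not shown, and Prelid1 was added after its values were seen. Motifs were searched on both strands; windows of 501 bp and counts around GAGGAAGT were added after the data were seen. Region operations, checked on 5000 planted intervals, used Python 3.11.15, numpy 2.4.6, pandas 2.3.3 and pysam 0.24.0. The result shares are descriptions, with SD over the lists of 2 libraries.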

Additional observations from a re-analysis of the deposited data

How the results depend on the processing

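No paired analysis was possible because no result comes from a test, so that there is no fit to hold the replicate number as a block. Class differences given as mean ± SD were taken within each library, which pairs the classes, and were not tested. Of the alternatives, 38 values moved by less than the SD between replicates (1 of them, the count of genes, has no SD and stayed within 1.5 times), 46 moved by more and 7 changed sign; the cause of each change was not tested, beyond the change in the lists themselves. Values follow as the share of PU.1 regions with H3K27ac, the share of H3K27ac regions with PU.1, and differences of classes (with minus without).

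Leaving out each library in turn gave 66.7 to 94.5% of PU.1 regions with H3K27ac and 6.57 to 23.3% of H3K27ac regions with PU.1. The promoter difference ranged from -5.47 to 11.5 percentage points for PU.1 and from 2.37 to 8.07 for H3K27ac. The log2 width ratio ranged from 0.23 to 0.73 and from 0.82 to 1.79, and the rank difference from 9.70 to 44.4 and from 25.1 to 42.9 percentile points. The share of H3K27ac regions with PU.1 was 13.1% within 1 kb, 27.6% with PU.1 in either library, and 11.7% and 10.8% at a −log10 q of at least 2 and 5. The share of PU.1 regions with H3K27ac was 96.8% with H3K27ac in either library and 84.7% at 5. At 2 the H3K27ac promoter difference was -0.0284. At 5 the promoter differences were -6.92 (PU.1) and -5.09 (H3K27ac), and the H3K27ac log2 width ratio was 0.76. Lists of equal length gave shares of 44.6% and 36.4%, promoter differences of -7.50 and -10.1, and for H3K27ac a log2 width ratio of 0.47 and a rank difference of 11.2. At like width the rank difference averaged 5.74 for PU.1 (9.93 without this) and 15.6 for H3K27ac (26.1).

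Other definitions of a promoter gave, for PU.1 and H3K27ac, -4.67 and 1.05 (summit), -5.64 and 4.81 (overlap), -6.95 and 2.39 (2.5 kb) and -5.66 and 1.40 (all genes). Regions of a single library held the other target in 51.7% and 49.2% for PU.1 and in 0.627% and 0.392% for H3K27ac. The GAGGAAGT difference, -1.38 percentage points at summits, was -1.20 at centres and 0.600 in windows of 501 bp.

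The lists give no reads, so no level can be given for a region that is missing from a list. PU.1 replicate 1 had 8.9 M fragments and replicate 2 had 17.3 M, with another threshold and control, and both bound which PU.1 regions enter the consensus.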
